A study of Mus musculus with 14 samples.

Results

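Collagen genes were read across the colons of mice with and without the glucocorticoid receptor (GR) in the intestinal epithelium, on regular water and after dextran sulfate sodium (DSS). Every gene whose symbol is Col, a number, the letter a and a number was taken, and symbols came from the RefSeq accession that the array files give for each probe. Of 44 such genes with a probe on the array, 39 had a probe that lay well above background on at least 3 arrays and were tested, against 15540 genes tested in all. Where a gene had several such probes, the 1 with the highest mean signal was used. The 39 genes comprised 11 fibrillar collagens, 5 basement membrane collagens (the type IV chains) and 23 of other types.

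The data are 14 one-colour Agilent Whole Mouse Genome arrays of total RNA of the colon; all mice were female C57BL/6, 4 to 6 months old, on a chow diet. Flox mice (GR fl/fl) carry loxP-flanked copies of Nr3c1, the gene for GR, and served as controls. GR iKO mice are Flox mice that also carry Villin-cre, which is active in intestinal epithelial cells, so the stromal cells that make most collagen are not targeted by design. Both genotypes received regular water or water with 2.5% DSS for 7 days. The groups held 4 Flox arrays on water, 4 GR iKO arrays on water, 3 Flox arrays on DSS and 3 GR iKO arrays on DSS. The series description counts mice in Flox and GR iKO pairs, 4 pairs on water and 3 on DSS, but the labels call the arrays of a group replicates without tying each to 1 animal, so p-values measure the spread between these samples.

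Collagens are the main structural proteins of the extracellular matrix. Fibrillar collagens assemble into the fibers that give the submucosa and muscle coat their strength, type IV collagen forms the sheet-like network of basement membranes under epithelium and around vessels and muscle cells, and the remaining types coat fibrils, anchor cells to the matrix or span the cell membrane. In the gut most fibrillar collagen is made by fibroblasts and smooth muscle cells. DSS injures the colonic epithelium and causes colitis, and the matrix is broken down and rebuilt as the tissue repairs.

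Levels are given as the log2 of the processed intensity minus the 75th percentile of the same array, so that 0 is the level of a probe at that percentile. A level belongs to its own probe and is not compared between genes. The 75th percentile ranged from 262 to 1003 intensity units and 62.6% to 71.3% of probes per array lay well above background, which limits what dim probes can show. The targeted gene Nr3c1 lay between 1.05 and 1.38 in Flox and between 0.19 and 0.57 in GR iKO mice on water, 57.3% of the Flox level (exact two-sided permutation test, p = 0.0286, the smallest possible with 4 against 4). On DSS it lay between 1.07 and 1.46 in Flox and between 0.37 and 0.48 in GR iKO mice, 56.1% of the Flox level (exact two-sided permutation test, p = 0.1, the smallest possible with 3 against 3). Where the Nr3c1 probe lies relative to the deleted part was not examined. All 8 markers of colon epithelium were well above background on all 14 arrays. The arrays sat on 4 slides; 3 slides held both arms of each DSS comparison and 2 held both genotypes on DSS. In bulk colon RNA, a change in the number of cells of a type and a change in RNA per cell cannot be told apart.

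Upstream sequence is shown first for chains of the main fibril genes and for the type IV pair with neighbouring starts on opposite strands. These are among the genes that the results on DSS turn on. RefSeq start sites (GRCm38.p6) with 250 bases before and 50 bases after the start were given for 31 of the 39 genes. Col1a1, Col2a1, Col5a2, Col9a3, Col12a1, Col14a1, Col22a1 and Col26a1 were not matched. These motifs were searched on both strands: CCAAT, the CCAAT box; TATAA, the core of the TATA box; and GGGCGG, the GC box. Printed 5′ to 3′ on the strand of the gene, the 250 bases before the start of Col1a2 (chr6:4505368-4505617, plus strand) and of Col3a1 (chr1:45311288-45311537, plus strand) follow, with motif matches in capitals.

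Col1a2: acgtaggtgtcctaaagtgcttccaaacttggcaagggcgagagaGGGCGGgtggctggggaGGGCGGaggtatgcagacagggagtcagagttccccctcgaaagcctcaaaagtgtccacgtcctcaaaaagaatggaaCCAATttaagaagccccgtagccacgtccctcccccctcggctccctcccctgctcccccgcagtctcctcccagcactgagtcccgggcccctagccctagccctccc

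Col3a1: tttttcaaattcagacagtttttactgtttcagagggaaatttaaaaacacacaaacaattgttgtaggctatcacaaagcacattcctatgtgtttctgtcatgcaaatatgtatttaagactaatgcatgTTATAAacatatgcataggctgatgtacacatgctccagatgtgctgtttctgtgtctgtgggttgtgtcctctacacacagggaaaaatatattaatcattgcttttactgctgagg

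The Col1a2 window held GGGCGG at 205 and 188 bases and CCAAT at 109 bases before the start. In the Col3a1 window TATAA lay 117 bases before the start and overlapped its match on the other strand, which began 118 bases before it. Col4a1 and Col4a2 are transcribed in opposite directions from starts 21 bases apart on chromosome 8, and their windows share 78 bases. A stretch of each is shown around its CCAAT match, for Col4a1 from the minus strand (chr8:11312957-11312986), where the match reads ATTGG, 145 bases before the start, and for Col4a2 from the plus strand (chr8:11312760-11312789), 32 bases before the start.

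Col4a1: tggtgcttgcccgggATTGGcgagccaagg

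Col4a2: cccgaggagctccCCAATttgttggcgctg

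CCAAT was found in 12 of the 31 collagen genes with a window (38.7%) and in 37.4% of all 32851 windows of the same length. TATAA was found in 5 of 31 (16.1%), against 24.9% of all windows. GGGCGG was found in 21 of 31 (67.7%), against 35.7% of all windows. These are counts of letters in a window, without a test.

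On DSS, most collagen genes of Flox mice lay higher than on water. In Flox mice 23 of the 39 genes (59.0%) were called higher, where 21.8% of all 29523 probes tested were called higher, and 4 genes (10.3%) were called lower, where 25.4% of probes were. A gene was called at an adjusted p under 0.05 (limma, Benjamini-Hochberg over all probes). In both genotypes the genes counted as higher include Col17a1. It passed the filter through the DSS arrays, so its call is a description. The median log2 change of the 39 genes was 1.10, beside -0.09 over all probes. Scaling to the spike-in transcripts turned it to -1.26, with the median of all probes at -2.45. Either scaling shifts all probes of an array alike on the log2 scale. The gap of 1.19 between these medians is therefore fixed, and its agreement under both scalings is no further support. Groups did not overlap for 26 of the 39 genes (66.7%), where they did not overlap for 57.4% of all probes. All 27 called genes changed in the same direction on each of the 3 slides. Groups without overlap must do so, and of the called genes only Col22a1 overlapped, so this adds no support.

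In GR iKO mice 20 collagen genes (51.3%) were called higher on DSS, beside 19% of all probes, and 4 (10.3%) were called lower, beside 19.7% of probes. The median log2 change was 0.76, against -0.02 over all probes; under spike-in scaling it turned to -0.20, with all probes at -0.98. Groups did not overlap for 25 of the 39 genes (64.1%), beside 46.3% of all probes. The 20 genes called higher in GR iKO mice were also called higher in Flox mice, and 3 more (Col6a3, Col9a2 and Col11a2) were called higher in Flox mice without being called in GR iKO mice. The genes called lower were different in each genotype: Col4a4, Col6a4, Col6a5 and Col22a1 in Flox mice, and Col4a5, Col4a6, Col12a1 and Col14a1 in GR iKO mice. None of these genotype differences passed the test of the difference (interaction). The other 8 genes were called in neither comparison.

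**Figure D1:**
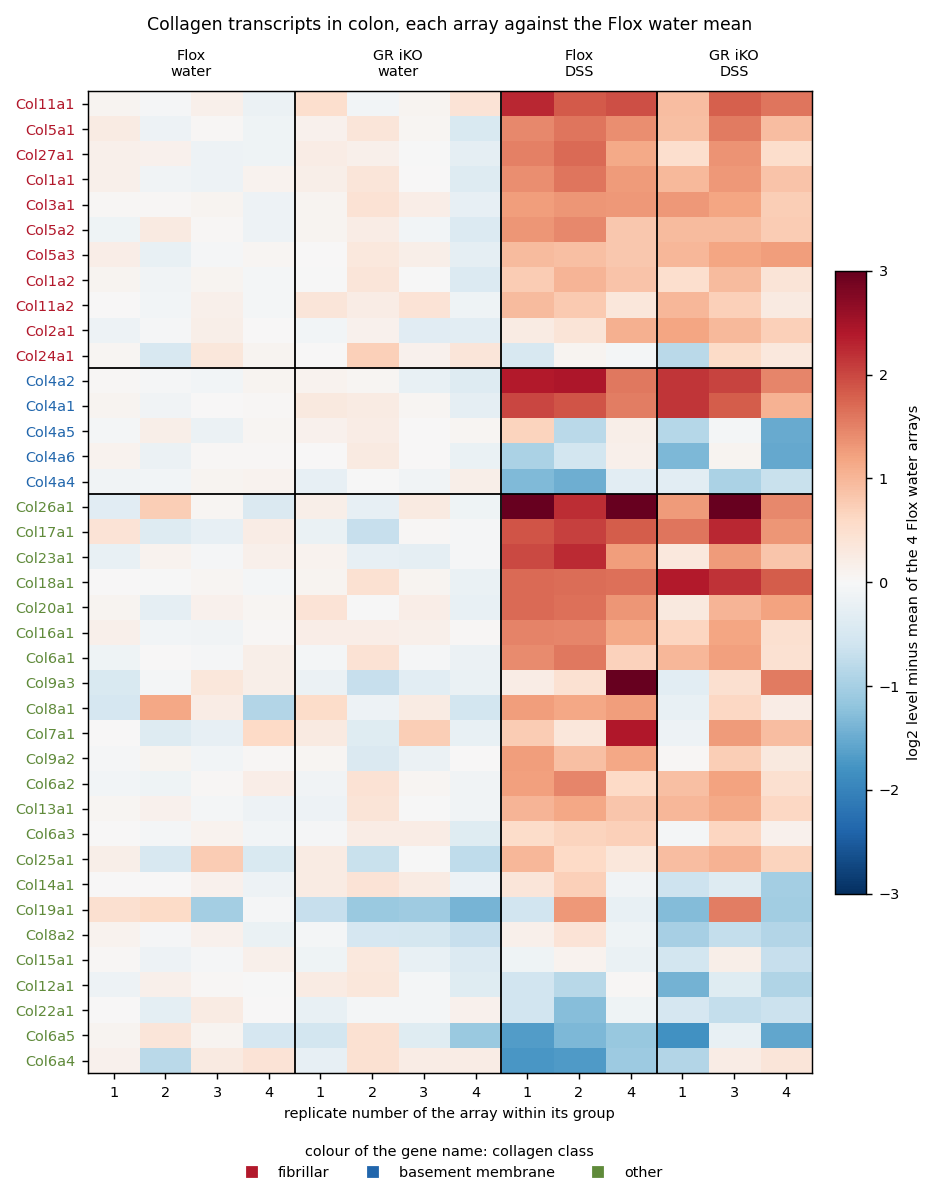
Log2 level of the 39 collagen genes (rows) on the 14 arrays (columns, by group), minus the mean of the Flox arrays on water, on the scale of the array's 75th percentile. The colour scale stops at 3 in either direction; 23 genes were called higher on DSS in Flox mice and 20 in GR iKO mice on this scale, a direction that turns for most genes in Flox mice under spike-in scaling.

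**Figure D2:**
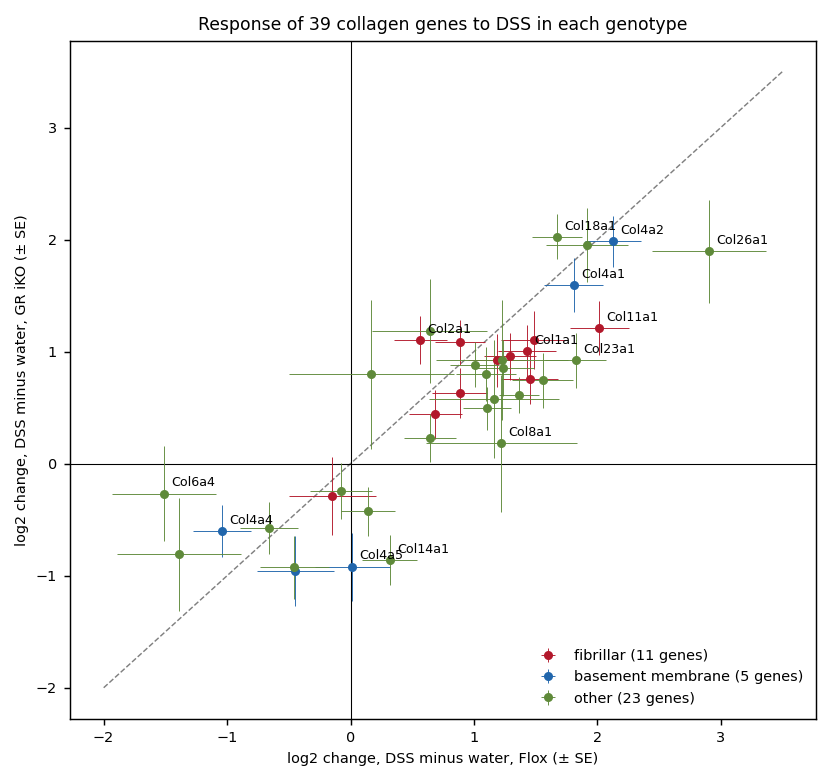
Log2 change with DSS in Flox mice (horizontal axis) and GR iKO mice (vertical axis) for the 39 collagen genes, with bars of 1 SE from the fit and a dashed line where both are equal. The medians were 1.10 in Flox and 0.76 in GR iKO mice on the scale of the 75th percentile, and both fall below 0 under spike-in scaling.

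Among fibrillar collagens, 10 of 11 were called higher on DSS in Flox mice (median log2 change 1.19) and 9 of 11 in GR iKO mice (median 0.96), and none was called lower. These shares, 90.9% and 81.8%, stand beside 21.8% and 19% of all probes called higher. Under spike-in scaling these medians were -1.17 and 0.00. They lay above the median of all probes by 1.28 and 0.98, gaps that the choice between these scalings cannot change. Col1a1 and Col1a2 encode the chains of type I collagen, the main collagen of most connective tissue. Col1a1 read 2.68, 2.42, 2.38 and 2.65 in Flox mice on water and 3.93, 4.14 and 3.82 on DSS. GR iKO mice gave 2.71, 2.89, 2.54 and 2.15 on water and 3.51, 3.83 and 3.39 on DSS. All DSS arrays lay above all water arrays in each genotype. The log2 change was 1.43 ± 0.23 (SE) in Flox mice, a 2.70-fold rise (adjusted p = 0.000399), and 1.00 ± 0.23 in GR iKO mice, a 2.00-fold rise (adjusted p = 0.00521). Within slides the change of Col1a1 ranged from 1.17 to 1.72 in Flox and from 0.80 to 1.29 in GR iKO mice.

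Col1a2 rose less. Its levels were 4.14, 3.95, 4.12 and 4.00 on water and 4.81, 5.08 and 4.92 on DSS in Flox mice, and 4.04, 4.42, 4.04 and 3.65 on water and 4.56, 4.998 and 4.44 on DSS in GR iKO mice. The groups did not overlap in either genotype. On the log2 scale it rose by 0.88 ± 0.23 in Flox mice (adjusted p = 0.00675) and 0.63 ± 0.23 in GR iKO mice (adjusted p = 0.0432). The GR iKO call did not survive in 9 of 14 refits with 1 array removed, with the adjusted p highest, 0.176, without GR iKO DSS replicate 3; in Flox mice leaving out DSS replicate 2 gave an adjusted p of 0.0542.

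Col3a1, the chain of type III collagen, which runs with type I in the gut wall, read 4.60, 4.59, 4.66 and 4.41 in Flox mice on water and 5.82, 5.88 and 5.86 on DSS. GR iKO levels were 4.66, 4.995, 4.76 and 4.32 on water and 5.88, 5.75 and 5.30 on DSS. The 3 Flox DSS arrays were close together, whereas the GR iKO arrays were more spread in both treatments. The rise was 1.29 ± 0.21 in Flox mice (adjusted p = 0.000405) and 0.96 ± 0.21 in GR iKO mice (adjusted p = 0.0037).

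The chains of type V collagen sit inside type I fibrils and set their diameter. Col5a1 lay between 0.89 and 1.28 in Flox mice on water and read 2.47, 2.65 and 2.43 on DSS. Among GR iKO mice it lay between 0.59 and 1.39 on water and read 1.93, 2.60 and 1.96 on DSS. Its log2 change was 1.48 ± 0.26 in Flox mice (adjusted p = 0.000672) and 1.10 ± 0.26 in GR iKO mice (adjusted p = 0.00573), with no overlap between water and DSS. Col5a2 changed by 1.19 and 0.92 and Col5a3 by 0.89 and 1.08 in Flox and GR iKO mice, and both were called higher in each genotype. On the probes used, Col5a3 and Col2a1 were the 2 fibrillar chains with a larger value in GR iKO than in Flox mice. The interaction of Col5a3 was 0.19 ± 0.29 (adjusted p = 0.811). A second Col5a3 probe, well above background on 2 of 8 water arrays, was called in neither genotype. It gave 1.36 ± 1.41 for Flox and 0.19 ± 1.41 for GR iKO mice, the reverse order. On it, GR iKO water replicate 4 read -2.05, where the other arrays of that group lay between -7.14 and -6.48. With the mean over its probes, Col5a3 was called in neither genotype.

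Among minor fibrillar chains, Col11a1, which nucleates fibrils in cartilage and other tissues, had the largest fibrillar change in both genotypes on the log2 scale. It read -4.76, -4.88, -4.70 and -5.01 in Flox mice on water and -2.57, -2.99 and -2.91 on DSS, and -4.34, -4.93, -4.75 and -4.42 on water and -3.91, -3.04 and -3.24 on DSS in GR iKO mice. The groups did not overlap. Its rise was 2.02 ± 0.24 (adjusted p = 4.58e-05) and 1.21 ± 0.24 (adjusted p = 0.00202). Col27a1, a long chain related to the fibrillar collagens, rose by 1.45 and 0.76, the GR iKO call being lost without DSS replicate 3 (adjusted p = 0.13), and Col2a1, the cartilage collagen chain, rose by 0.56 and 1.10. The Flox call of Col2a1 did not survive in 9 of 14 such refits, with an adjusted p of up to 0.268 without Flox DSS replicate 4. Col11a2 changed by 0.69 in Flox mice (adjusted p = 0.0201) and by 0.44 in GR iKO mice (adjusted p = 0.128). Col24a1 was the only fibrillar chain called in neither genotype, with -0.15 and -0.29. A second probe of Col24a1 did not clear background on any of the water arrays but did so on all 3 Flox DSS arrays, where it was at least 3.05-fold higher. It entered the test through DSS arrays alone, so this bound is a description without a test.

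**Figure D3:**
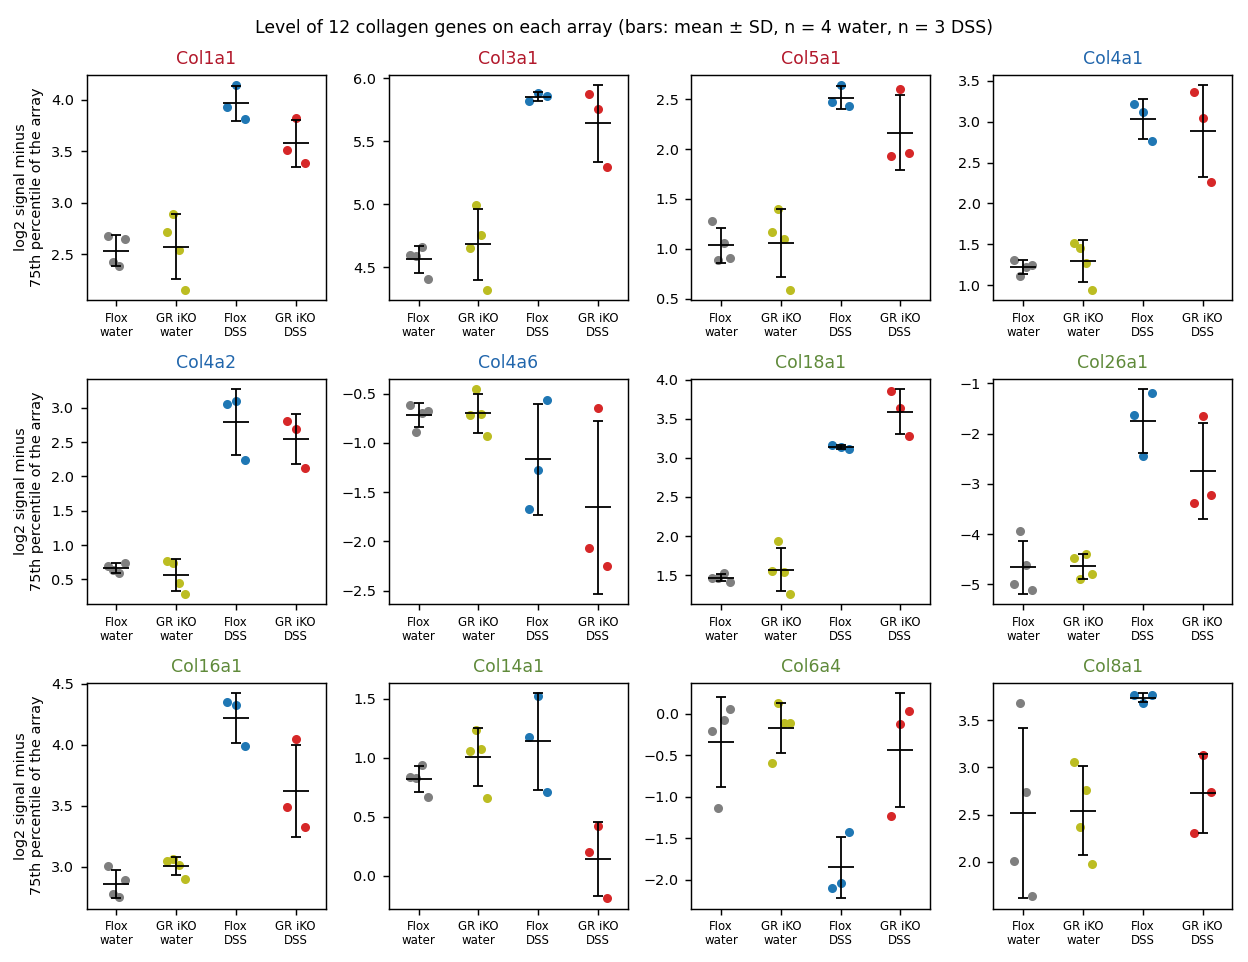
Log2 level of 12 collagen genes on each array, relative to the array's 75th percentile, by group, with 1 dot per array and the mean and SD of 4 or 3 arrays. Water and DSS dots do not overlap in either genotype for Col1a1, Col3a1, Col5a1, Col4a1, Col4a2 and Col18a1 on this scale; under spike-in scaling Flox DSS means fall below water means for each of these 6 genes.

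Basement membrane collagens split. Col4a1 and Col4a2, which together form the common type IV collagen of nearly all basement membranes, rose in both genotypes, while none of the tissue-restricted chains Col4a4, Col4a5 and Col4a6 was called higher. Col4a2 read 0.70, 0.64, 0.59 and 0.74 in Flox mice on water and 3.05, 3.09 and 2.24 on DSS. The GR iKO arrays read 0.77, 0.73, 0.45 and 0.29 on water and 2.81, 2.69 and 2.13 on DSS. Every DSS array lay above every water array of its genotype. The log2 change was 2.13 ± 0.23, a 4.37-fold rise (adjusted p = 2.24e-05), in Flox mice and 1.98 ± 0.23, a 3.96-fold rise (adjusted p = 5.92e-05), in GR iKO mice.

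Col4a1 read 1.31, 1.11, 1.23 and 1.25 on water and 3.22, 3.12 and 2.76 on DSS in Flox mice, and 1.52, 1.46, 1.27 and 0.94 on water and 3.36, 3.04 and 2.27 on DSS in GR iKO mice. Its rise was 1.81 ± 0.24 (adjusted p = 9.67e-05) and 1.59 ± 0.24 (adjusted p = 0.000363). The lowest DSS array was replicate 4 for both Col4a1 and Col4a2 in both genotypes. Water and DSS arrays did not overlap for either gene in either genotype. The same sign on each of 3 slides follows from this and is no further support. The further probe of each gene also rose in both genotypes, by 1.97 and 1.68 for Col4a1 and by 2.36 and 1.89 for Col4a2.

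Col4a4, a chain of the network with Col4a3 and Col4a5 best known from the glomerulus, read -0.57, -0.54, -0.39 and -0.36 in Flox mice on water and -1.80, -1.94 and -0.77 on DSS. The log2 change was -1.04 ± 0.24 in Flox mice (adjusted p = 0.00329) and -0.60 ± 0.24 in GR iKO mice (adjusted p = 0.0604). Col4a5 and Col4a6, which pair in the basement membrane of smooth muscle, were called lower in GR iKO mice. Col4a6 read -0.71, -0.45, -0.71 and -0.93 on water and -2.06, -0.64 and -2.25 on DSS in GR iKO mice. Replicate 3 on DSS lay within the water range, and the change within its slide was 0.07. The log2 change of Col4a6 was -0.95 ± 0.31 (adjusted p = 0.0293) in GR iKO and -0.45 ± 0.31 (adjusted p = 0.258) in Flox mice. Col4a5 changed by -0.92 ± 0.30 (adjusted p = 0.0305) in GR iKO and 0.01 ± 0.30 (adjusted p = 0.977) in Flox mice. Its probe is dim. In GR iKO mice it read -4.13, -4.04, -4.25 and -4.22 on water and -5.12, -4.33 and -5.79 on DSS. Only 2 of the 3 GR iKO DSS arrays showed it well above background, which limits what the size of its fall can show. Leaving out GR iKO DSS replicate 4 ended the GR iKO calls of Col4a5 and Col4a6, with adjusted p of 0.216 and 0.189. Both calls were also lost without GR iKO DSS replicate 1 or GR iKO water replicate 2. The 2 further probes of Col4a6 differed from each other: 1 gave 0.08 in Flox and 0.17 in GR iKO mice, and the other, dimmer 1 gave -0.99 (adjusted p = 0.0658) and -1.06 (adjusted p = 0.0588), none of them called.

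Among the 23 other types, 11 were called higher and 3 lower in Flox mice and 9 higher and 2 lower in GR iKO mice, with median log2 changes of 1.10 and 0.61 (-1.26 and -0.34 under spike-in scaling). Type VI collagen forms beaded filaments around cells. Of its ubiquitous chains, Col6a1 rose by 1.23 ± 0.25 in Flox mice (adjusted p = 0.00162) and 0.86 ± 0.25 in GR iKO mice (adjusted p = 0.017), and Col6a2 by 1.10 ± 0.24 (adjusted p = 0.00291) and 0.80 ± 0.24 (adjusted p = 0.0211). Both GR iKO calls were lost without DSS replicate 1 or replicate 3, with adjusted p of up to 0.086 for Col6a1 and 0.103 for Col6a2. Col6a3 read 2.20, 2.13, 2.29 and 2.09 on water and 2.73, 2.85 and 2.88 on DSS in Flox mice, a change of 0.64 ± 0.21 (adjusted p = 0.0254) whose call was lost without any 1 of the 3 Flox DSS arrays (adjusted p up to 0.105). In GR iKO mice its DSS arrays, at 2.13, 2.81 and 2.31, overlapped the water arrays (1.81 to 2.40), with a change of 0.23 ± 0.21 (adjusted p = 0.429).

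Col6a4 and Col6a5, chains with a narrower tissue range, went the other way in Flox mice. Col6a4 read -0.21, -1.14, -0.08 and 0.06 on water and -2.10, -2.04 and -1.43 on DSS in Flox mice, and -0.59, 0.12, -0.12 and -0.11 on water and -1.23, -0.13 and 0.03 on DSS in GR iKO mice. In GR iKO mice replicate 1 on DSS was below all water arrays and the other DSS arrays lay among them. Its log2 change was -1.51 ± 0.42 (adjusted p = 0.0115) in Flox and -0.27 ± 0.42 (adjusted p = 0.651) in GR iKO mice, and the Flox call was lost without DSS replicate 1 (adjusted p = 0.08) or DSS replicate 2. A further probe of Col6a4 gave 0.41 in Flox mice (adjusted p = 0.463). Col6a5 changed by -1.39 ± 0.50 in Flox mice (adjusted p = 0.0378) and lost its call in 6 of 14 refits with 1 array removed.

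Fibril-associated collagens lie on the surface of fibrils rather than forming them. Of 8 in this class, 3 were called higher and 1 lower in Flox mice, and 2 higher and 2 lower in GR iKO mice. These shares, 37.5% and 12.5% in Flox and 25% each in GR iKO mice, stand beside 21.8% and 25.4% of all probes in Flox and 19% and 19.7% in GR iKO mice. Col16a1 read 3.00, 2.78, 2.75 and 2.89 on water and 4.35, 4.33 and 3.99 on DSS in Flox mice, and 3.05, 3.06, 3.01 and 2.90 on water and 3.49, 4.04 and 3.32 on DSS in GR iKO mice. Col16a1 rose by 1.37 ± 0.16 (adjusted p = 4.28e-05) and 0.61 ± 0.16 (adjusted p = 0.00994), the GR iKO call being lost without DSS replicate 3 (adjusted p = 0.0632). Col14a1, a fibril-surface chain of mature connective tissue, lay between 0.67 and 0.94 on water and read 1.18, 1.53 and 0.71 on DSS in Flox mice. In GR iKO mice it read 1.06, 1.23, 1.08 and 0.66 on water and 0.20, 0.43 and -0.19 on DSS, with every DSS array below every water array. Its change was 0.32 ± 0.22 (adjusted p = 0.262) in Flox and -0.86 ± 0.22 (adjusted p = 0.00922) in GR iKO mice, and the GR iKO call was lost without DSS replicate 4 (adjusted p = 0.0696). Col12a1, a related chain, changed by -0.46 ± 0.28 (adjusted p = 0.201) and -0.93 ± 0.28 (adjusted p = 0.0203), a call lost without GR iKO DSS replicate 1 (adjusted p = 0.115) or replicate 4. A second probe of Col12a1 gave -0.06 in GR iKO mice (adjusted p = 0.907), and the mean over its probes was not called (-0.49, adjusted p = 0.199). Col22a1 changed by -0.66 in Flox mice (adjusted p = 0.0336), a call lost in 4 of 14 such fits, and Col20a1 rose by 1.56 and 0.74, the GR iKO call being lost in 6 of 14.

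The multiplexins Col15a1 and Col18a1 are collagens of vascular and epithelial basement membranes, and Col18a1 is the parent protein of endostatin. Col18a1 read 1.47, 1.46, 1.52 and 1.41 in Flox mice on water and 3.16, 3.15 and 3.11 on DSS. The GR iKO levels were 1.55, 1.93, 1.54 and 1.26 on water and 3.85, 3.64 and 3.28 on DSS. Every GR iKO DSS array lay above every Flox DSS array. The log2 change was 1.67 ± 0.20 (adjusted p = 4.65e-05) in Flox and 2.02 ± 0.20 (adjusted p = 2.38e-05) in GR iKO mice, and the difference between genotypes on DSS was 0.45 ± 0.26 (adjusted p = 0.392). A further probe rose by 1.61 and 1.88. Col15a1 changed by -0.08 (adjusted p = 0.822) and -0.24 (adjusted p = 0.477).

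Transmembrane collagens are anchored in the cell membrane. In each genotype 3 of 4 were called higher, beside 21.8% of all probes in Flox and 19% in GR iKO mice. Col23a1 read -2.19, -1.87, -2.002 and -1.82 on water and 0.02, 0.27 and -0.72 on DSS in Flox mice, and -1.86, -2.22, -2.24 and -2.003 on water and -1.65, -0.70 and -1.14 on DSS in GR iKO mice. The rise was 1.83 ± 0.25 (adjusted p = 0.00011) and 0.92 ± 0.25 (adjusted p = 0.011); without GR iKO DSS replicate 3 the latter was not called (adjusted p = 0.0698). Col17a1, a component of hemidesmosomes in stratified epithelium, read -5.24, -6.04, -5.90 and -5.42 on water and -3.77, -3.60 and -3.84 on DSS in Flox mice, and -5.86, -6.34, -5.60 and -5.69 on water and -4.03, -3.39 and -4.34 on DSS in GR iKO mice. In each genotype 1 of 4 water arrays and all 3 DSS arrays showed it well above background. It thus passed the filter through the DSS arrays, where it is high, and its call, 1 of the 3, is a description and no support for a rise. Col13a1 rose by 1.01 and 0.88.

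Of the remaining types, Col26a1, a small collagen first described in testis and ovary, had the largest change of all collagen genes in Flox mice. It read -5.00, -3.93, -4.61 and -5.10 on water and -1.63, -2.45 and -1.19 on DSS in Flox mice, and -4.48, -4.90, -4.39 and -4.80 on water and -3.38, -1.64 and -3.22 on DSS in GR iKO mice. Water and DSS arrays did not overlap. Its log2 change was 2.91 ± 0.46, a 7.50-fold rise (adjusted p = 0.000323), and 1.90 ± 0.46, a 3.72-fold rise (adjusted p = 0.0065); within slides it ranged from 1.48 to 3.92 and from 1.11 to 2.75. Col7a1, the anchoring fibril chain, changed by 1.16 ± 0.53 (adjusted p = 0.0872) and 0.58 ± 0.53 (adjusted p = 0.416). The short-chain collagen Col8a1, made by vessel and smooth muscle cells, was spread from 1.64 to 3.69 in Flox mice on water and narrow on DSS, at 3.76, 3.68 and 3.77. Its change was 1.22 ± 0.61 (adjusted p = 0.119) and 0.18 ± 0.61 (adjusted p = 0.838).

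On water, none of the 39 collagen genes was called between GR iKO and Flox mice (smallest adjusted p = 0.9999), beside 0.0237% of all probes; 2 genes, Col8a2 and Col19a1, had an unadjusted p under 0.05 (limma), 5.13% beside 3.34% of all probes. The median difference was 0.03, with 24 genes higher and 15 lower in GR iKO mice. Col8a2, the second type VIII chain, read -1.91, -2.04, -1.87 and -2.20 in Flox and -2.06, -2.52, -2.53 and -2.70 in GR iKO mice. Col19a1 was above background on 1 Flox water array and no GR iKO water array.

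On DSS, none of the 39 genes was called between genotypes (smallest adjusted p = 0.107), beside 0.0203% of all probes. Of the 39 differences 30 were negative, the median being -0.34 against 0.03 over all probes; under spike-in scaling the median was 0.89, with all probes at 1.26. Of the 11 fibrillar genes 8 were lower in GR iKO mice (median -0.27), as were 4 of 5 basement membrane genes (median -0.25) and 18 of 23 others (median -0.43). In limma 8 genes (20.5%) had an unadjusted p under 0.05, each with the same sign on both slides, beside 17.6% of all probes, so the share is near that of the array as a whole and the values that follow are a description. Groups did not overlap for 9 of the 39 genes (23.1%), beside 22.8% of all probes. Col6a4 differed by 1.41 ± 0.54, the higher level being in GR iKO mice (adjusted p = 0.208). Its further probe went the other way, by -0.18 ± 0.55 (adjusted p = 0.91). The difference was -1.02 ± 0.32 for Col23a1 (adjusted p = 0.138), -1.01 ± 0.28 for Col8a2 (adjusted p = 0.107) and -0.99 ± 0.29 for Col14a1 (adjusted p = 0.118), the lower level being in GR iKO mice. Col9a2, Col20a1, Col27a1 and Col16a1 differed by -0.75, -0.72, -0.67 and -0.60. With 1 common spread for all arrays in place of separate weights for water and DSS arrays, 1 gene was called higher (Col6a4) and 5 lower (Col8a2, Col9a2, Col14a1, Col16a1 and Col23a1), so these calls depend on how the larger spread of the DSS arrays is treated.

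The DSS response of GR iKO mice minus that of Flox mice is the test of whether the genotypes respond unequally. No collagen gene was called (smallest adjusted p = 0.16), beside 0% of all probes, and 6 genes (15.4%) had an unadjusted p under 0.05 in limma, beside 14.8% of all probes. Of the 39 values 29 were negative, with a median of -0.30 against 0.03 over all probes; the median turned to 1.10 under spike-in scaling, with all probes at 1.43. Col14a1 gave -1.18 ± 0.31 (unadjusted p = 0.00272 and adjusted p = 0.16 in limma), Col23a1 gave -0.90 ± 0.35 (adjusted p = 0.265) and Col11a1 gave -0.80 ± 0.34 (adjusted p = 0.3). The genes called in 1 genotype and not in the other therefore did not pass the test of the difference. The median SD among replicates over the 39 genes was 0.15 in Flox and 0.27 in GR iKO mice on water, and 0.29 and 0.38 on DSS; over all probes the medians were 0.18, 0.17, 0.26 and 0.34. Single arrays shifted many genes at once: in GR iKO mice on water, replicate 2 was the highest of 4 for 20 of 39 genes and replicate 4 the lowest for 25, and on DSS replicate 3 was the highest of 3 for 26.

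**Figure D4:**
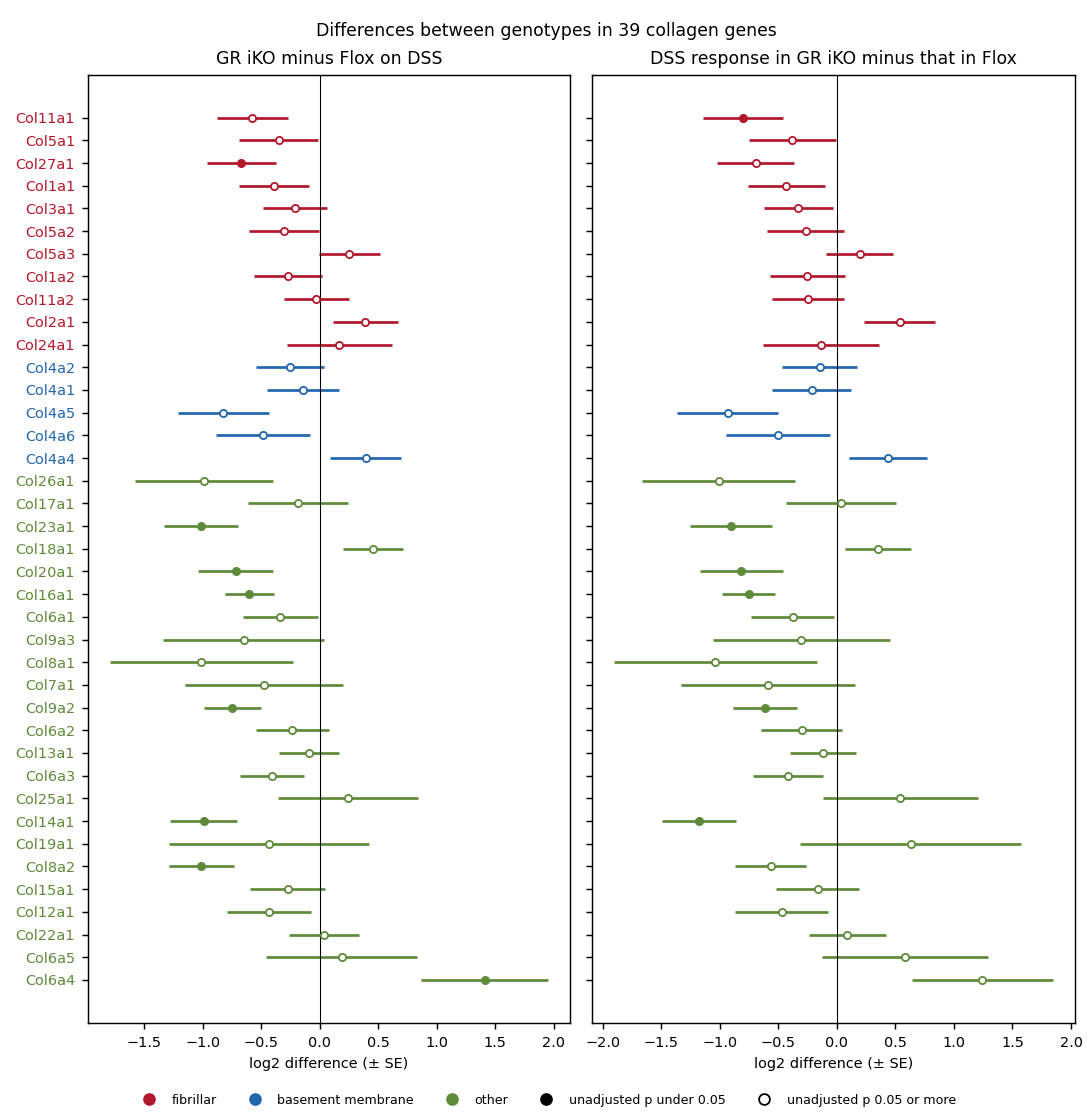
Difference between GR iKO and Flox mice on DSS and the difference between their DSS responses (interaction) for each of the 39 collagen genes, in log2 units with bars of 1 SE. Filled points have an unadjusted p under 0.05 (8 and 6 genes, 20.5% and 15.4%, beside 17.6% and 14.8% of all probes) and none passed the adjusted threshold; 30 and 29 of the 39 values are negative, while the medians turn positive under spike-in scaling.

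Genes that make, modify, bind and break down collagen were read from lists by role. Their counts stand beside 21.8% of all probes called higher and 25.4% called lower in Flox mice, and 19% and 19.7% in GR iKO mice. Enzymes and chaperones of chain synthesis and folding, such as the prolyl and lysyl hydroxylases, were called higher for 13 of 19 genes in Flox and 12 of 19 in GR iKO mice. Plod2, a lysyl hydroxylase, rose by 1.98 and 1.55, Fkbp10, a collagen chaperone, by 1.91 and 1.42, and P3h2, a prolyl hydroxylase, by 1.86 and 1.04. Creb3l1, a transcription factor of secretory cells that also acts on type I collagen genes, was the 1 gene of the list called lower. It read -0.47, -0.15, -0.56 and -0.64 on water and -3.83, -4.17 and -2.99 on DSS in Flox mice, a change of -3.21 ± 0.24 (adjusted p = 3.39e-06), and changed by -2.28 in GR iKO mice (adjusted p = 3.68e-05).

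Propeptide cleavage enzymes and their enhancers were called higher for 3 of 6 genes in Flox and 4 of 6 in GR iKO mice; Bmp1, the procollagen C-proteinase, rose by 1.58 and 1.11. Of 5 lysyl oxidases, which cross-link collagen, 4 were called higher in each genotype. Loxl4, 1 of the 5, was well above background on none of the water arrays. It passed the filter through the DSS arrays and is a description. Lox read -3.64, -3.78, -3.59 and -3.71 on water and -1.22, -1.21 and -1.91 on DSS in Flox mice, a rise of 2.23 (adjusted p = 6.82e-05), and rose by 2.51 in GR iKO mice (adjusted p = 5.23e-05). Among 13 fibril-binding proteoglycans and glycoproteins 10 were called higher and none lower in Flox mice, and 7 higher and 2 lower in GR iKO mice. Lum, the fibril-binding proteoglycan lumican, rose by 2.42 and 1.70. Ogn and Postn were called lower in GR iKO mice, with changes of -1.98 and -1.19, and were not called in Flox mice (-0.61 and -0.12).

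Partners of type IV collagen in the basement membrane, the laminins, nidogens and heparan sulfate proteoglycans, were called higher for 6 and lower for 1 of 13 genes in Flox mice and higher for 7 of 13 in GR iKO mice. The list holds Lama1, whose probe cleared background in 2 of the 8 water samples but in 5 of the 6 DSS samples. Lama1 thus reached the test by way of the DSS arrays, and any call of it is a description. Hspg2, perlecan, rose by 2.44 and 1.68. Lama3, a laminin chain of epithelial basement membranes, was the gene called lower: it changed by -1.05 in Flox mice (adjusted p = 0.0046) and by 0.59 in GR iKO mice (adjusted p = 0.0818). Between genotypes on DSS, Lama3 differed by 1.74 (adjusted p = 0.0725). Of 8 collagen receptors, 5 were called higher and 2 lower in each genotype. Ddr2, the fibrillar collagen receptor tyrosine kinase of stromal cells, rose by 1.98 and 1.54, and Itgb1 by 1.65 and 1.26; Itga11 and Gp6 were the genes called lower.

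Of 6 collagen-degrading enzymes, 5 were called higher in Flox and 6 in GR iKO mice. The list holds Mmp8, which passed the filter through the DSS arrays alone, and its call is no support for a rise. Mmp13, a stromal collagenase, read -1.88, -1.85, -2.23 and -1.79 in Flox mice on water and 0.42, -0.32 and 0.34 on DSS, and in GR iKO mice -2.23, -1.59, -2.26 and -1.32 on water and 5.14, 2.98 and 3.05 on DSS. Every GR iKO DSS array lay above every Flox DSS array of this gene. The rise was 2.08 (adjusted p = 0.00265) and 5.57 (adjusted p = 7.02e-06), and the genotypes on DSS differed by 3.58 (adjusted p = 0.0664). Mmp8, the neutrophil collagenase, did not lie well above background in any water sample; on DSS it was at least 12.3-fold higher in Flox mice and at least 92.4-fold higher in GR iKO mice. Mmp8 entered the test through the DSS arrays alone, so its values are a description. These bounds set the mean of the DSS arrays against the lowest signal well above background on each water array, or the signal of the probe where that was higher. In every list, no gene was called between genotypes on water or on DSS or for the interaction.

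**Figure D5:**
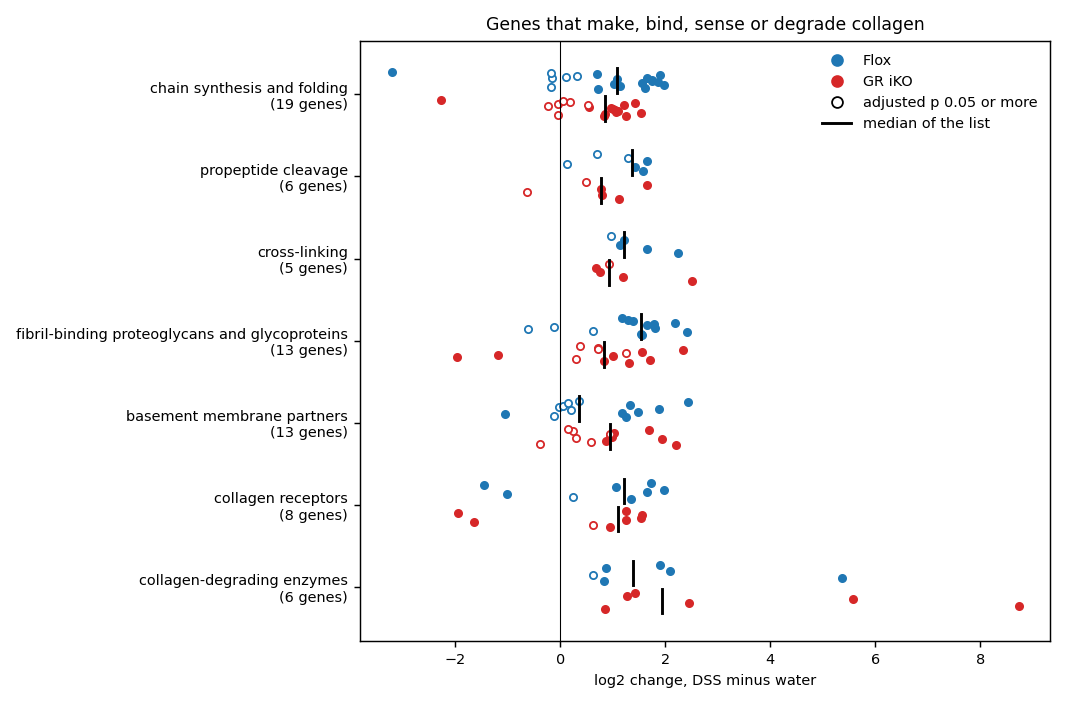
Log2 change with DSS in Flox and GR iKO mice for the genes of 7 lists of collagen partners (rows), relative to the array's 75th percentile, with filled points called at an adjusted p under 0.05. Most lists lie right of 0 in both genotypes, with Creb3l1 far to the left and Mmp8 and Mmp13 far to the right; under spike-in scaling all values move down with the median of all probes, by 2.36 in Flox and 0.96 in GR iKO mice.

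Fibroblast markers moved with these results in both genotypes, and smooth muscle markers in Flox mice. Counts of markers called on DSS stand beside 21.8% of all probes called higher and 25.4% lower in Flox mice. In GR iKO mice these shares were 19% and 19.7%. The summed level of 8 fibroblast markers, collagens left out, in units of the array's 75th percentile, ranged from 79.1 to 98.0 in Flox mice on water and from 190 to 339 on DSS, and from 76.0 to 99.5 and from 198 to 239 in GR iKO mice. In Flox mice 7 of the 8 were called higher and Fap lower, and in GR iKO mice 6 were called higher and 1 lower. The fibroblast list shares Dcn, Lum and Dpt with the list of fibril-binding genes. The sums are on the linear scale, so bright genes weigh most in them. Dcn is such a gene, with a mean log2 level of 5.80 on water and 7.37 on DSS in Flox mice, and Lum had 3.28 and 5.70. The summed level of 6 smooth muscle markers ranged from 439 to 695 in Flox mice on water and from 1036 to 1874 on DSS, with 5 of 6 called higher, and from 413 to 683 and from 353 to 823 in GR iKO mice, with none of 6 called. Smooth muscle markers differed between genotypes on DSS by a median of -1.34, with none called. Enteric glia markers were called higher for 4 of 4 in each genotype, with summed levels of 1.40 to 1.64 on water and 7.42 to 9.69 on DSS in Flox and of 1.43 to 1.80 and 2.89 to 4.48 in GR iKO mice. Neutrophil markers summed to 0.113 to 0.376 on water and 23.2 to 65.6 on DSS in Flox mice and to 0.110 to 0.552 and 76.5 to 273 in GR iKO mice. Adipocyte markers (3 tested) summed to 9.94 to 38.6 in Flox and 2.75 to 13.9 in GR iKO mice on DSS, and differed between genotypes by a median of -3.08, with none called. The part of these markers in the collagen changes was not tested.

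A further 21 probes of 18 collagen genes passed the same filter. In each DSS comparison 18 of the 21 changed in the same direction as the probe used and 3 in the other, and no pair of probes was called in opposite directions. Of the 21, 6 were above background on fewer than 3 water arrays and passed the filter through DSS arrays. The direction of these 6 (probes of Col5a3, Col11a2, Col13a1, Col16a1, Col23a1 and Col24a1) is a description and no support. For Col1a1 a pair of further probes rose by 1.66 and 1.56 in Flox mice and by 0.94 and 1.18 in GR iKO mice, all called. Col5a1 rose by 2.76 and 1.94 on its second probe, which is more than on the probe used. The 5 genes that did not pass the filter were Col4a3, Col6a6, Col9a1, Col10a1 and Col28a1, whose brightest probes lay well above background on 0 to 2 arrays and are not tested. Just inside the filter, Col19a1 passed on 3 arrays and Col17a1 on 8; these were the 2 of 39 genes above background on fewer than 3 of the 8 water arrays, as were 6 of the 21 further probes and, among the partner genes, Loxl4, Lama1 and Mmp8.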

How the data were processed

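Colon total RNA (labelled with Cy3) was hybridised to 14 one-colour arrays. Spot intensities were read by the authors (Agilent Feature Extraction 12.0.0.7), and the deposited processed intensity is background-subtracted and on a linear scale. The deposited value table holds log2 values of the same arrays, with a lowest correlation with the scanner values of 0.999; Partek 6.6 is named in the submitters' notes, the normalization is not given in the sources used here, and the table served as an alternative.

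From the processed intensity, control spots and outlier spots were left out, spots of a probe were averaged, and log2 values minus the 75th percentile of each array were fitted with limma 3.58.1 (R 4.3.3). Probes well above background on at least 3 of 14 arrays were tested, 29523 in all. Of these, 22993 were named through RefSeq. The fit held 4 group means, array weights of 1.70 for water and 0.495 for DSS arrays, and Benjamini-Hochberg adjustment. A missing value (97 probes) dropped that array for that probe. The fit was tested on simulated data. Replicate numbers were not used to pair the samples, and whether they mark pairs was not settled (see the closing section).

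Groups came from the labels. In the partner lists, 1 gene is not reported here and is left out of their counts. Genes were named by role (main fibrillar, type IV, type VI and similar chains), by the 5 largest rises and falls without overlap in each comparison, and at the detection filter; partner genes by the 3 largest changes of a list. Other genes named, such as Col16a1, Col27a1, Col9a2, Col8a2, Col20a1, Col2a1, Col13a1, Col22a1, Col24a1, Bmp1 and Postn, were chosen after their values were seen. The members, lists and tests were chosen with earlier results of these data known. Alternatives covered the weights, samples, shrinkage, background correction, normalization, filter, outlier spots, probe choice, slide and replicate blocks, and each array left out; normexp used the median spot signal; the mean was not used here.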

Additional observations from a re-analysis of the deposited data

Results flagged for a closer look

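In groups of 4 arrays, 1 array lay far from the other 3 (a gap to the nearest array, as a share of the whole range, above Dixon's critical value) in 8 of 220 groups looked at, where chance gives about 1 in 20. All 8 were partner genes, and no collagen gene was among them. On water in GR iKO mice these were Plod2 (0.845), Bgn (0.837), Fbln1 (0.842), Lama2 (0.857), Ddr2 (0.878) and Ctsk (0.833). On water in Flox mice they were P3h3 (0.878) and Colgalt1 (0.882). Replicate 4 was the low array for Plod2 and Ddr2 in GR iKO mice, at -2.05 and 1.66, and replicate 2 the high array for Bgn, Fbln1, Lama2 and Ctsk, at -1.06, 1.87, -2.69 and -1.88.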

How the results depend on the processing

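Scaling to the spike-in transcripts changed the most. In Flox mice it called 0 collagen genes higher and 29 lower on DSS, in GR iKO mice 0 higher and 10 lower, and for the interaction 5 higher. It shifted the median of all probes by -2.36 in Flox and -0.96 in GR iKO mice, and reversed Col1a1 (-0.93), Col1a2 (-1.48), Col3a1 (-1.07), Col5a1 (-0.88), Col5a2 (-1.17), Col5a3 (-1.47), Col4a1 (-0.55), Col4a2 (-0.23), Col4a5 (-2.35), Col6a1 (-1.13), Col6a2 (-1.26), Col6a3 (-1.72), Col7a1 (-1.20), Col8a1 (-1.14), Col14a1 (-2.04), Col18a1 (-0.69) and Col17a1 (-0.45) in Flox mice, and Col1a2 (-0.33), Col5a2 (-0.035), Col6a1 (-0.10), Col6a2 (-0.16), Col6a3 (-0.73), Col7a1 (-0.38) and Col8a1 (-0.77) in GR iKO mice. The mean spike-in level was 12.8 to 13.1 on Flox DSS arrays and 11.2 to 11.9 on Flox water arrays; the cause was not tested. Col4a5 in Flox mice, near 0 in the fit, turned to -0.17 with quantile normalization and with the deposited table and to -0.013 with slide as a block. Normexp correction gave 0.10 for Col15a1 in Flox and 0.018 for Col4a5 in GR iKO mice, 2 genes called lower in each genotype and a shift of all probes by 0.31 in Flox mice; averaging the probes of a gene gave 2 lower in GR iKO mice. Between genotypes on DSS, 1 common spread called 1 higher and 5 lower and a weight for every array 1 higher and 6 lower, the latter also 1 higher and 4 lower for the interaction.

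Leaving out each array in turn gave 19 to 23 genes higher and 1 to 4 lower in Flox mice (1 without DSS replicate 1 or 2, 2 without water replicate 3), 13 (without GR iKO DSS replicate 3) to 21 higher and 0 to 6 lower in GR iKO mice (0 without DSS replicate 4, 2 without DSS replicate 1 or water replicate 2), and 0 to 1 lower between genotypes on DSS (1 without Flox DSS replicate 4 or GR iKO DSS replicate 3). It called 0 genes on water and for the interaction. All 14 such fits kept 19 of 23 higher and 1 of 4 lower calls in Flox mice (Col4a4), and 13 of 20 and 0 of 4 in GR iKO mice. Col4a5 in Flox mice ranged from -0.32 to 0.43, and Col8a1 in GR iKO mice from -0.019 to 0.40. The replicate block gave 24 higher and 4 lower in Flox and 22 higher and 5 lower in GR iKO mice. Same-numbered arrays deviated from their group means with correlations from -0.23 to 0.31. All arrays numbered 4 sat on slide 4, among them the pair with 0.31, so number and slide cannot be told apart there. These values cannot decide whether the numbers mark pairs. Slide as a block gave 25 and 4, and 22 and 5. A tally under the settings other than leaving out 1 array covers only the chains named by role, in both DSS comparisons. Of its values 495 kept their direction and their side of the threshold, 29 reversed, 23 lost and 9 gained a call. Other members, among them Col2a1, Col6a4, Col6a5, Col11a2, Col20a1 and Col22a1, are not in this tally. Dim probes (Col4a5, Col17a1, Col19a1, Col24a1, Col25a1, Col9a3) are limited by signal over background.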
